A study of Mus musculus with 6 samples.

Results

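ATF6 and the CREB3 family are transcription factors that are made as proteins anchored in the membrane of the endoplasmic reticulum (ER). The genes described here are Atf6, Atf6b, Creb3, Creb3l1, Creb3l2, Creb3l3 and Creb3l4, which encode the membrane-bound factors, and Mbtps1, which encodes the site-1 protease that cleaves them. These 8 genes were picked by name for their role, with earlier results of these data known, and all 8 were among the 19936 genes measured, each through 1 probe set that names a single gene.

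Gene expression was measured on 6 Affymetrix arrays of colon epithelium from male C57BL/6J mice aged 8 wk. The 3 knockout arrays came from Sel1L-delta-IEC mice, in which a Cre recombinase driven by the villin-1 promoter removes the floxed exon 6 of Sel1l, so that the deletion is limited to the intestinal epithelium. The 3 arrays set against them came from wild type C57BL/6J mice, and the labels do not say whether these carried floxed alleles or Cre. The labels name mice without saying that each array stands for a separate animal, so the p-values rest on a spread between arrays that may be technical. On the mouse chromosomes, Atf6 lies on 1, Atf6b on 17, Creb3 on 4, Creb3l1 on 2, Creb3l2 on 6, Creb3l3 on 10, Creb3l4 on 3 and Mbtps1 on 8.

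SEL1L serves as partner of the ubiquitin ligase HRD1 in ER-associated degradation, which removes misfolded proteins from the ER. When unfolded proteins gather, ATF6 is released from the chaperone BiP, leaves the ER in COPII vesicles and is cut in the Golgi by the site-1 protease and then by the site-2 protease, which frees a bZIP factor that enters the nucleus and switches on chaperone and degradation genes. The CREB3 proteins share this route of cleavage and serve secretory load, collagen export or lipid metabolism in different tissues. ATF6 protein has been described as a substrate of SEL1L-dependent degradation, as has the Creb3l3 product CREBH in mouse liver, but the arrays report transcripts only, so neither protein amount nor cleavage was measured here.

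ATF6 is known to act at the ER stress element, in which CCAAT and CCACG are 9 bases apart, bound together with NF-Y. The promoters of 9 of 17 ATF6 target genes with an entry in the RefSeq promoter table (build GRCm38.p6) held this motif, and these stretches are shown because 8 of the 9 genes rose in the knockout, as described with the target genes. Each window is written 5′ to 3′ on the gene's strand, and capitals mark the CCAAT and CCACG letters or their reverse complements ATTGG and CGTGG.
Derl3 (chr10:75893227-75893275, plus strand): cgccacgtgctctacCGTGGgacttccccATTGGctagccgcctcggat
Creld2 (chr15:88819505-88819553, plus strand): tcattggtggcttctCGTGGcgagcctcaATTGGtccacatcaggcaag
Pdia6 (chr12:17266476-17266524, plus strand): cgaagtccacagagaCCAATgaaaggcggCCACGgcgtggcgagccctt
Hspa5 (chr2:34772010-34772058, plus strand): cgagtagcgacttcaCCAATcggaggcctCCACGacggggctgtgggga
Syvn1 (chr19:6046517-6046565, plus strand): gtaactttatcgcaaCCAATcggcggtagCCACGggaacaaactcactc
Hsp90b1 (chr10:86705518-86705566, minus strand): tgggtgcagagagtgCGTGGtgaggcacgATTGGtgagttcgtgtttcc
Hsp90b1 (chr10:86705623-86705671, minus strand): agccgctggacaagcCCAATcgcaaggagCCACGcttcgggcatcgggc
Dnajc3 (chr14:118937812-118937860, plus strand): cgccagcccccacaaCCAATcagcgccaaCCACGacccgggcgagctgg
Calr (chr8:84847060-84847108, minus strand): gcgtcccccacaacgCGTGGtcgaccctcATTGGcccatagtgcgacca
Canx (chr11:50325785-50325833, minus strand): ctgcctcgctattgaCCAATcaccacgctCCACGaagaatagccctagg
Herpud1 and Nucb1 held the related ER stress element II, in which ATTGG and CCACG stand 1 base apart. Its fixed letters are in capitals here, on whichever strand they were found.
Herpud1 (chr8:94386362-94386402, plus strand): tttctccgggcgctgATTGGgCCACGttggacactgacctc
Nucb1 (chr7:45510424-45510464, minus strand): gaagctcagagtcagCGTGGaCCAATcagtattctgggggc
The only other listed genes with one of the searched motifs upstream or just downstream of the start were Dnajb11 (ER stress element II), and Sec24d and Sec23a (TGACGTGG, an ATF6 and XBP1 site).

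The knockout label was checked on the targeted gene. Sel1l levels were 8.70, 9.06 and 8.66 in the knockout arrays, against 9.45, 9.67 and 9.54 in the wild type arrays, with no overlap. The change was -0.74 ± 0.11 (SE, n = 3 each) on the log2 scale (limma, adjusted p = 0.018). Leaving out knockout array 1 or 3, or wild type array 1 or 2, took the adjusted p to between 0.055 and 0.087. Whether the probe set covers exon 6 was not determined, so the signal left in the knockout is no measure of deletion. Background was read from the 95th percentile of the 1035 odorant receptor probe sets (5.64 on the log2 scale), which stand here for genes not expressed in colon. Averaged over the 6 arrays, all 12 epithelial markers, such as Vil1, Epcam and Krt20, lay above it. So did 5 of 7 fibroblast markers and 0 of 4 endothelial markers, so this cut alone does not set epithelium apart. The mean level of the 12 epithelial markers was at least 11.81 in every knockout array and 11.82 in every wild type array. Pairs of arrays correlated at 0.993 to 0.997 over all genes, a description since genes are not replicates.

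In the knockout colon epithelium 3 of the 8 genes rose and none fell. These were Creb3l2, Creb3 and Atf6, each higher in all 3 knockout arrays than in any wild type array. The transcripts of Atf6b, Creb3l1, Creb3l3, Creb3l4 and Mbtps1 did not pass the test. Among all genes, 1.63% were called in either direction, 0.918% as higher and 0.712% as lower, and 11.4% had knockout arrays that all lay above the wild type arrays. The share of members called was 3 of 8, with a median change of 0.083 on the log2 scale over the 8 genes, against 0.019 over all genes.

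**Figure D1:**
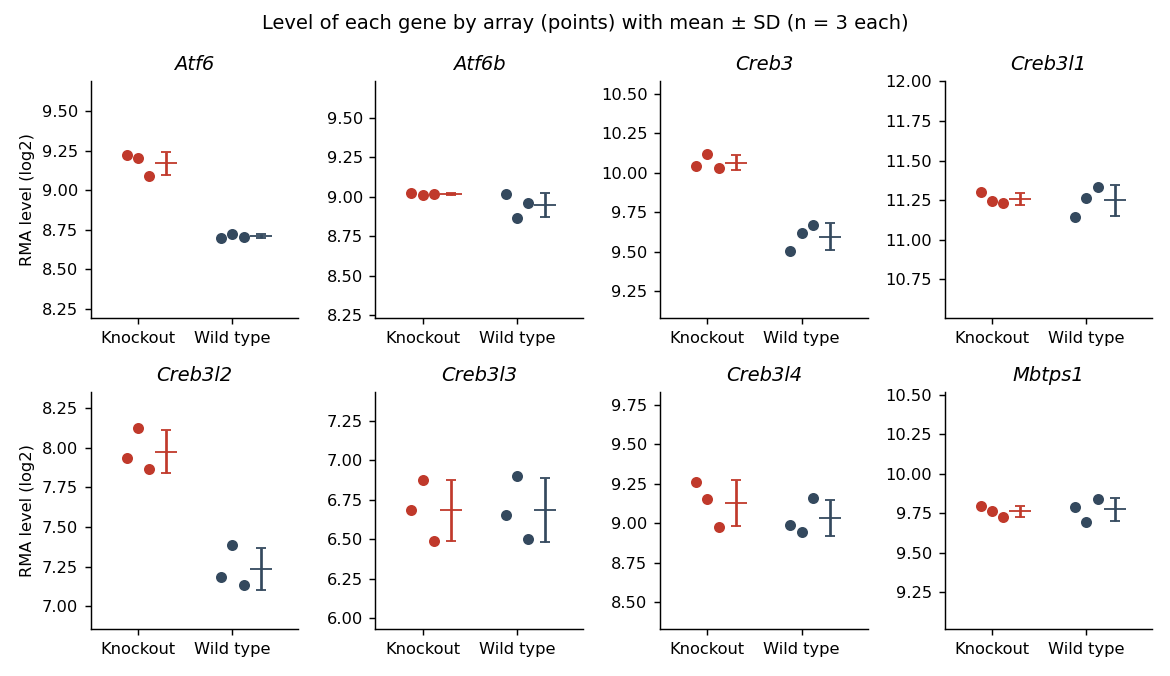
RMA level on the log2 scale of each of the 8 genes in the 3 knockout and the 3 wild type arrays (points), with mean ± SD beside them. Every panel spans 1.5 log2 units. Knockout points lie above all wild type points for Atf6, Creb3 and Creb3l2, and the groups overlap for the other 5 genes.

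ATF6 is the principal ATF6 factor and the direct activator of chaperone genes in mammals. Atf6 levels were 9.22, 9.20 and 9.09 in the knockout arrays, against 8.70, 8.73 and 8.71 in the wild type arrays. The lowest knockout array lay 0.36 above the highest wild type array, and the wild type arrays spanned only 0.026. The change was 0.46 ± 0.061 (SE) on the log2 scale, or 1.37-fold (95% interval 1.25 to 1.52), with limma's adjusted p = 0.0125, and it ranked 165 from the highest among 19936 genes. Its call ended when knockout array 1 or 2, or wild type array 1 or 2, was left out (highest adjusted p = 0.063), while the change stayed between 0.43 and 0.50.

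ATF6B, the paralog of ATF6, is cleaved in the same way and is known as a weaker activator. Atf6b levels were 9.02, 9.01 and 9.02 in the knockout arrays, against 9.02, 8.86 and 8.96 in the wild type arrays. The groups overlapped through wild type array 1. The change was 0.070 ± 0.062 (SE), with a 95% interval of -0.072 to 0.21 and adjusted p = 0.70, so a rise as large as that of Atf6 lies outside its interval. Compared within arrays, the difference Atf6 minus Atf6b was 0.20, 0.19 and 0.066 in the knockout arrays, against -0.32, -0.14 and -0.25 in the wild type arrays, a gap of 0.39 ± 0.068 (SE). The groups did not overlap. The exact two-sided permutation p was 0.1, the smallest that 3 against 3 arrays allow, and 0.15 after adjustment over the 3 paralog pairs compared.

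CREB3, also called Luman, is widely expressed and has been linked to Golgi stress in human cells. Creb3 levels were 10.04, 10.12 and 10.03 in the knockout arrays, against 9.50, 9.62 and 9.67 in the wild type arrays. All knockout arrays lay at least 0.36 above the wild type arrays. The change was 0.47 ± 0.066 (SE), or 1.38-fold (95% interval 1.24 to 1.54), with adjusted p = 0.0147, close in size to that of Atf6. Its call also ended when knockout array 1 or 2, or wild type array 1 or 2, was left out (highest adjusted p = 0.069), and the change stayed between 0.42 and 0.50.

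CREB3L2, also called BBF2H7, is needed for matrix secretion by mouse chondrocytes, where it activates the coat gene Sec23a. Creb3l2 showed the largest change among the 8 genes, with levels of 7.94, 8.13 and 7.86 in the knockout arrays, against 7.19, 7.38 and 7.13 in the wild type arrays. The groups were 0.48 apart at their nearest points, more than the spread of 0.26 within the knockout and 0.25 within the wild type. The change was 0.74 ± 0.093 (SE), or 1.67-fold (95% interval 1.44 to 1.94), with adjusted p = 0.0101, and it ranked 51 from the highest among 19936 genes. The call ended only without knockout array 1 (adjusted p = 0.052), where the change was 0.76.

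CREB3L1, also called OASIS, is the closest relative of CREB3L2 and is known for collagen production in bone and for goblet cell maturation in mouse colon. Creb3l1 levels were 11.30, 11.24 and 11.23 in the knockout arrays, against 11.15, 11.26 and 11.34 in the wild type arrays. The knockout arrays lay within the wild type range. The change was 0.011 ± 0.068 (SE), with a 95% interval of -0.14 to 0.17 and adjusted p = 0.96. Compared within arrays, Creb3l2 minus Creb3l1 was -3.36, -3.11 and -3.37 in the knockout arrays, against -3.96, -3.88 and -4.20 in the wild type arrays. The gap between genotypes was 0.73 ± 0.13 (SE), the groups did not overlap, and an exact two-sided permutation test gave p = 0.1, or 0.15 over the 3 pairs. The size of these within-array differences has no meaning of its own, because the probes of the genes differ, and only the gap between genotypes can be read.

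CREB3L3, also called CREBH, acts in liver and small intestine on lipid and acute phase genes. Creb3l3 levels were 6.69, 6.87 and 6.49 in the knockout arrays, against 6.65, 6.90 and 6.50 in the wild type arrays. The groups covered nearly the same range. The change was -0.00098 ± 0.12 (SE), with a 95% interval of -0.28 to 0.28 and adjusted p = 0.998. Its signal exceeded the 99th percentile of odorant receptor probe sets (6.51) in 4 of 6 arrays, whereas each of the other 7 genes exceeded it in all 6, so signal close to background limits what can be seen of this transcript.

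CREB3L4 is best known from spermatids in mouse and from prostate in human. Creb3l4 levels were 9.26, 9.15 and 8.98 in the knockout arrays, against 8.99, 8.95 and 9.16 in the wild type arrays. The groups overlapped, with knockout array 3 below wild type arrays 1 and 3. The change was 0.095 ± 0.091 (SE), with a 95% interval of -0.11 to 0.30 and adjusted p = 0.73. Creb3l4 minus Creb3l3 differed between genotypes by 0.096 ± 0.20 (SE), with overlapping groups (exact permutation p = 0.7, also 0.7 over the 3 pairs).

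Mbtps1 encodes the site-1 protease, on which the release of all 7 factors depends. Its levels were 9.80, 9.76 and 9.72 in the knockout arrays, against 9.79, 9.70 and 9.84 in the wild type arrays. The knockout arrays lay within the wild type range. The change was -0.014 ± 0.063 (SE), with a 95% interval of -0.16 to 0.13 and adjusted p = 0.95.

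**Figure D2:**
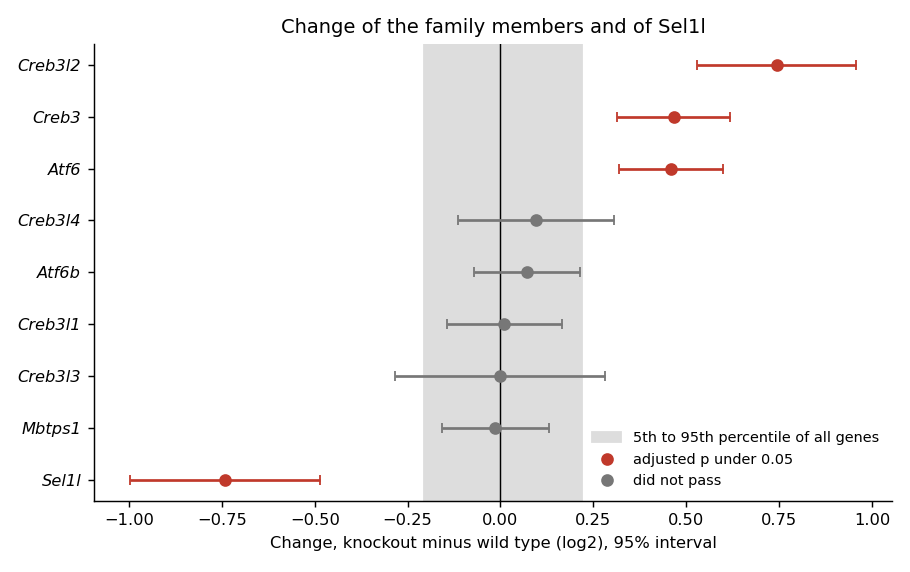
Log2 change of each gene (knockout minus wild type) with its 95% interval, beside that of Sel1l. The grey band covers the 5th to 95th percentile of all genes (-0.20 to 0.22). Creb3l2 (0.74), Creb3 (0.47) and Atf6 (0.46) lie to the right of the band, and the other 5 genes lie within it.

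**Figure D3:**
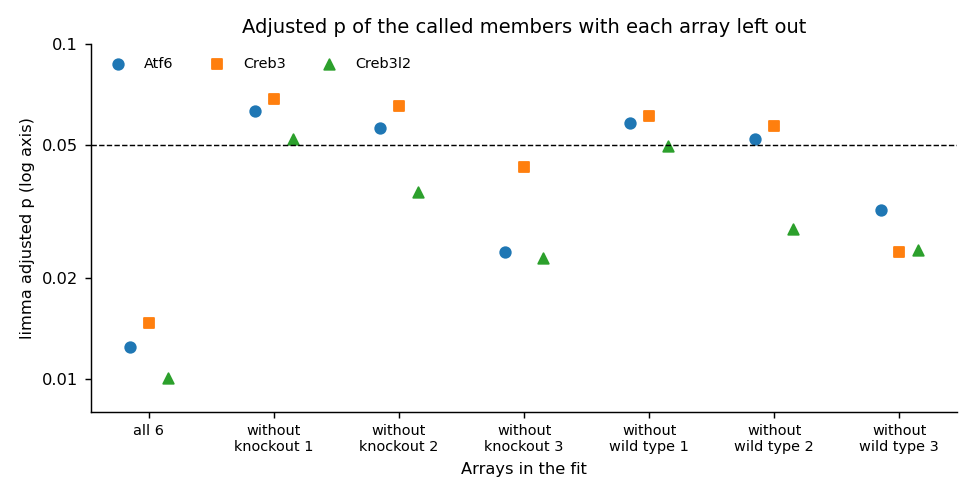
limma adjusted p of the 3 called genes on a log axis, with all 6 arrays and with each array left out, against the threshold of 0.05 (dashed). Creb3l2 crosses the threshold only without knockout array 1 (0.052), whereas Atf6 and Creb3 lie above it without knockout array 1 or 2 or wild type array 1 or 2.

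The pattern of these 3 genes over the 6 arrays was set beside every other gene by Pearson's r. For Creb3l2 the most similar gene was Preb (r = 0.9998), which encodes the activator of the COPII coat GTPase, followed by Gbf1 (r = 0.996), a Golgi exchange factor, and Ppp2r5b (r = 0.995). For Atf6 they were Twf1 (r = 0.999), Tmem39a (r = 0.998) and Usp36 (r = 0.996), and for Creb3 they were Gltp (r = 0.997), Hs3st3b1 (r = 0.996) and Osbp (r = 0.996), the last an ER-Golgi sterol carrier. With 6 arrays in 2 groups and 19936 genes, values this high describe the arrays and are not evidence of a link. Of these 9 genes, Preb, Ppp2r5b, Tmem39a, Usp36 and Hs3st3b1 were called as higher in the knockout. With an array left out, Hs3st3b1 stayed called in all 6 fits, Tmem39a lost its call without knockout array 1 or wild type array 1, and the others were called in none.

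Genes that hold ATF6 in the ER or help to cleave it changed in part. Of 7 measured, 3 rose, against 0.918% of all genes, and 0 fell, and the median of the 7 changes was 0.24, against 0.019 over all genes. Of the 3, Hspa5 and Calr are also in the list of ATF6 targets below, and only Wfs1 is not. Hspa5, which encodes BiP, the chaperone that retains ATF6, had levels of 12.51, 12.54 and 12.41 in the knockout arrays, against 11.54, 11.82 and 11.55 in the wild type arrays. Its change was 0.85 ± 0.087 (SE, adjusted p = 0.0064), and it was called with each array left out. Wfs1, whose product wolframin promotes degradation of ATF6 by HRD1, had levels of 8.55, 8.47 and 8.32 in the knockout arrays, against 8.09, 8.03 and 8.00 in the wild type arrays. The change of Wfs1 was 0.41 ± 0.074 (SE, adjusted p = 0.036), with no overlap, and it was called in only 1 of the 6 fits that leave out an array, the one without knockout array 3. Calr, which encodes the lectin chaperone calreticulin, rose by 0.39 ± 0.058 (SE, adjusted p = 0.017) and stayed called in 1 of the 6 fits, the one that left out wild type array 3. Nucb1, whose product inhibits cleavage of ATF6 by the site-1 protease, differed by 0.056 ± 0.055 (adjusted p = 0.74), and Pdia5, a disulfide isomerase that activates ATF6, by 0.24 ± 0.073 (adjusted p = 0.20). Mbtps2, which encodes the site-2 protease, shares its only probe set with Yy2 and is given no value.

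Genes for other users of the site-1 protease did not pass the test. Of 6 genes for the sterol regulators, their retention proteins and the lysosomal enzyme transferase Gnptab, limma called 0, with 1 at an unadjusted p under 0.05, and the median change was -0.070. The genes for the factors of lipid and cholesterol synthesis, Srebf1 and Srebf2, differed by -0.093 ± 0.064 (adjusted p = 0.60) and by -0.048 ± 0.059 (adjusted p = 0.80). The nuclear partners of ATF6, the NF-Y subunits Nfya, Nfyb and Nfyc with Yy1, Gtf2i and Xbp1, were also not called (0 of 6, and 1 with an unadjusted p under 0.05). Xbp1, whose spliced product can pair with ATF6, came nearest, with levels of 11.59, 11.56 and 11.46 in the knockout arrays, against 11.28, 11.32 and 11.27 in the wild type arrays, and a change of 0.25 ± 0.061 (adjusted p = 0.10).

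Most textbook targets of ATF6 rose. Of 19, limma called 14 as higher and none as lower, against 0.918% of all genes called higher, and in 18 the knockout arrays all lay above the wild type arrays, against 11.4% of all genes. Their median change was 0.73 on the log2 scale. The smallest p-values were those of Sdf2l1, an ER chaperone partner, Derl3, a Derlin of the degradation pathway, Pdia6, a disulfide isomerase, and Hyou1, a large ER chaperone. Derl3 had levels of 9.63, 8.85 and 9.18 in the knockout arrays, against 6.78, 6.59 and 6.83 in the wild type arrays. Its groups lay 2.03 apart at their nearest points, the widest gap in the list, and its change was 2.49 ± 0.17 (SE), or 5.62-fold (adjusted p = 0.0013). Creld2, a secreted ER stress protein, had levels of 10.96, 10.83 and 10.72 in the knockout arrays, against 9.66, 10.03 and 9.84 in the wild type arrays. The change of Creld2 was 0.99 ± 0.10 (SE, adjusted p = 0.0064), and its lowest knockout array lay well above the highest wild type array. Changes of 1.17 ± 0.069 for Sdf2l1, 0.94 ± 0.075 for Pdia6, 0.87 ± 0.073 for Hyou1, 0.72 ± 0.089 for Pdia4 and 0.68 ± 0.068 for Hsp90b1, which encodes GRP94, were also called. The genes that did not pass were Dnajb11 (0.42), Edem1 (0.34), Xbp1 (0.25), Canx (0.20) and Os9 (0.0073). Many of these targets are shared with XBP1 and, for Ddit3, with ATF4, so the list does not separate the branches. The count lay between 12 and 14 with an array left out.

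**Figure D4:**
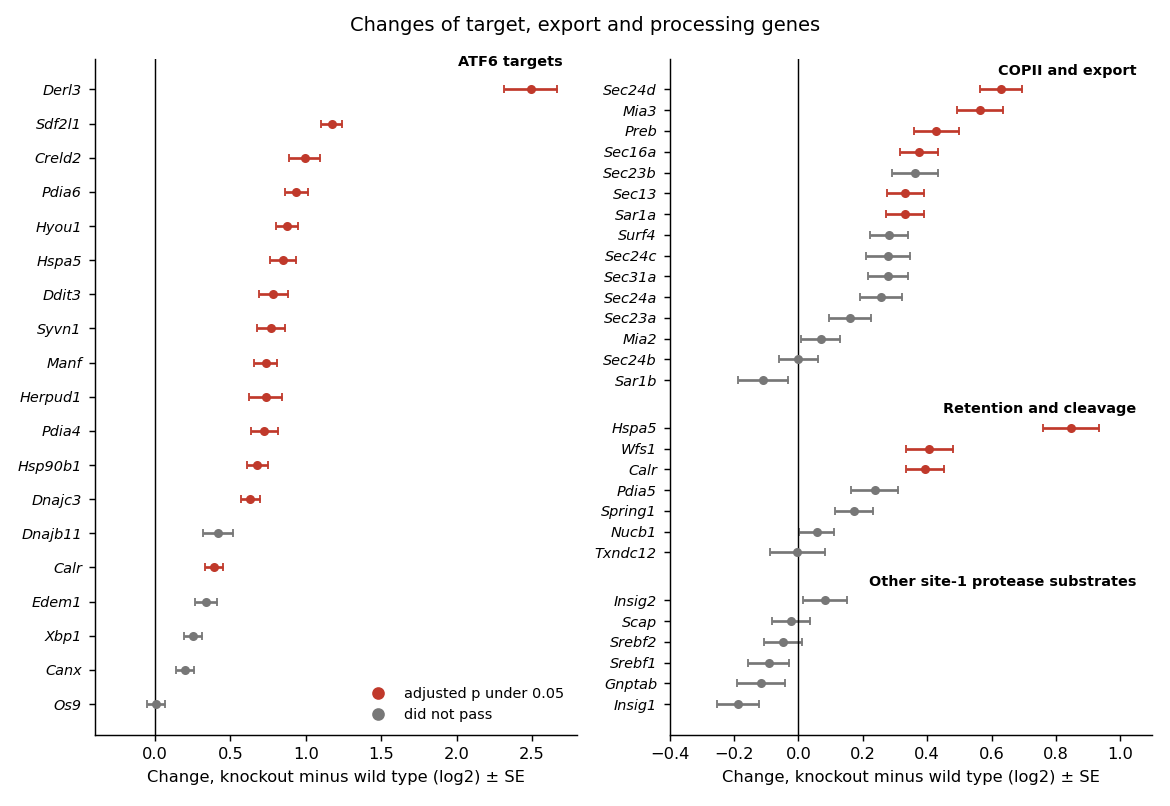
Log2 change ± SE (knockout minus wild type) of the ATF6 targets (left) and of genes for COPII export, for retention and cleavage of ATF6, and for other site-1 protease substrates (right). Derl3 (2.49) leads the targets and Os9 (0.0073) is last, Sec24d (0.63) leads the export genes, and all 6 other site-1 protease substrate genes are grey, which means not called.

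ATF6 and the CREB3 proteins reach the proteases in COPII vesicles, and several genes of this coat rose. Of 15 COPII and cargo export genes, 6 rose, against 0.918% of all genes, and 0 fell. In 12 the knockout arrays all lay above the wild type arrays, against 11.4% of all genes. The median of the 15 changes was 0.28. Sec24d, a cargo-binding coat subunit and a reported target of CREB3L2, had levels of 9.73, 9.60 and 9.60 in the knockout arrays, against 8.99, 8.98 and 9.06 in the wild type arrays. Its change was 0.63 ± 0.064 (SE, adjusted p = 0.0064), and it was called with each array left out. The other 5 were Mia3, the collagen export receptor TANGO1 (0.56 ± 0.072), Preb (0.43 ± 0.070), the scaffold gene Sec16a (0.38 ± 0.059), Sec13 (0.33 ± 0.056) and the GTPase gene Sar1a (0.33 ± 0.059). Sec23a, the mouse chondrocyte target of CREB3L2, had levels of 10.33, 10.46 and 10.34 in the knockout arrays, against 10.22, 10.27 and 10.16 in the wild type arrays. These groups did not overlap, but the change of 0.16 ± 0.065 did not pass (adjusted p = 0.33). Between 1 and 3 of the 15 genes were called with an array left out, 1 of them Sec24d every time. Mia3 lost its call without knockout array 1 or wild type array 1 or 2, and Preb and Sec13 were called in none of these 6 fits, while Sec16a and Sar1a were called in 1 each.

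Among reported targets of CREB3 family members, 3 of 13 measured were called, all higher, against 0.918% of all genes called higher. Besides Sec24d these were Herpud1, a degradation adaptor also in the ATF6 list (0.73 ± 0.11, adjusted p = 0.018), and Arf4, a Golgi GTPase gene activated by CREB3 in human cells. Arf4 had levels of 11.30, 11.17 and 11.17 in the knockout arrays, against 10.81, 10.89 and 10.91 in the wild type arrays. The groups did not overlap, and the change was 0.34 ± 0.065 (SE, adjusted p = 0.046), but the call was lost with each array left out (adjusted p 0.078 to 0.17). Herpud1 lost its call without knockout array 1 or 2 or wild type array 1 or 2. The liver targets of CREB3L3 were not called, and Hamp, Apcs and G6pc stayed below the 95th percentile of odorant receptor probe sets in every array. Apoa4 did not overlap between genotypes but did not pass (0.23 ± 0.096, limma unadjusted p = 0.043, adjusted p = 0.35). Of the 13 genes, 5 had knockout arrays that all lay above the wild type arrays, against 11.4% of all genes, and 0 had them all below. Col1a1, a bone target of CREB3L1, differed by -0.015 ± 0.074 (adjusted p = 0.95).

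Promoter motifs gave a grouping by sequence alone. The motifs were chosen with earlier results of these data known, and the counts were added after the data had been seen. Over all 32851 promoter entries, the ER stress element (CCAAT, any 9 bases, CCACG) was found in 0.119%, ER stress element II (ATTGG, any base, CCACG) in 0.0365%, TGACGTGG, a site bound by ATF6 and XBP1, in 0.676%, and the cAMP response element TGACGTCA in 1.79%, on either strand and with overlaps allowed. Of 21 measured genes with the ER stress element, limma called 10, all higher, or 47.6%, against 1.72% of all genes with a promoter entry. Their median change was 0.39. Of the 21, 9 are in the ATF6 list, whose genes are known partly through this element. The 12 others are the more separate view, although Alg12 among them shares its stretch with the listed gene Creld2. The median change of the 12 was 0.087, and 2 of them were called. They were Ero1b, an ER oxidase gene (0.73 ± 0.11, adjusted p = 0.016), and Zfp57, an imprinting factor gene (0.56 ± 0.057, adjusted p = 0.0064), both named after their values were seen. Zfp57 stayed called in all 6 fits that leave out an array, and Ero1b was not called without knockout array 1 or 2 or wild type array 1 or 2. Zfp57 levels were 6.44, 6.49 and 6.53 in the knockout arrays, against 5.94, 5.93 and 5.91 in the wild type arrays. Of 9 measured genes with ER stress element II, 1 was called, Herpud1.

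Of 143 measured genes with TGACGTGG, 11 rose and 1 fell (8.39% called), with a median change of 0.063. Among all genes with a promoter entry, 1.72% were called in either direction, with a median of 0.018. The highest of them was Kdelr3, a receptor that returns ER proteins from the Golgi (0.88 ± 0.095, adjusted p = 0.0065). It was followed by Sec24d, Morf4l2 (0.52), the zinc transporter gene Slc39a13 (0.50), Txndc11 (0.48), the COPI coat gene Copb2 (0.47), Scfd1 (0.44), Tmem248 (0.43), Stx5a (0.39), Copb1 (0.35) and Smim14 (0.34). Asb11 fell, with levels of 5.57, 5.62 and 5.66 in the knockout arrays, against 6.38, 6.58 and 6.28 in the wild type arrays. Knockout arrays 1 and 2 lay below the 95th percentile of odorant receptor probe sets and knockout array 3 just above it. The change of Asb11 was -0.80 ± 0.083 (adjusted p = 0.0064). Other than Sec24d, these genes were named after their values were seen. Between 4 and 10 of the 143 were called with an array left out, 4 of them without knockout array 1 or 2 or wild type array 1 or 2. Kdelr3, Sec24d, Morf4l2 and Asb11 stayed called in all 6 of these fits. Slc39a13, Txndc11, Copb2, Scfd1 and Tmem248 were called in 2 each and Copb1 in 1, while Stx5a and Smim14 were called in none. With TGACGTCA, 5 rose and 4 fell of 424 measured, with a median of 0.0075. The share called was 2.12%, near the 1.72% of all genes with a promoter entry. Windows around TGACGTGG (capitals, or its reverse complement CCACGTCA) are shown for Kdelr3, Sec24d and Copb1, which act in transport between ER and Golgi, and for Asb11, which fell.
Kdelr3 (chr15:79516363-79516400, plus strand): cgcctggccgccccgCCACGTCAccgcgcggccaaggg
Sec24d (chr3:123267455-123267492, plus strand): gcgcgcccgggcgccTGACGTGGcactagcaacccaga
Copb1 (chr7:114254686-114254723, minus strand): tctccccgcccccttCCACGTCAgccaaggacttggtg
Asb11 (chrX:164436889-164436926, plus strand): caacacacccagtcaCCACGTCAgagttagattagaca

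**Figure D5:**
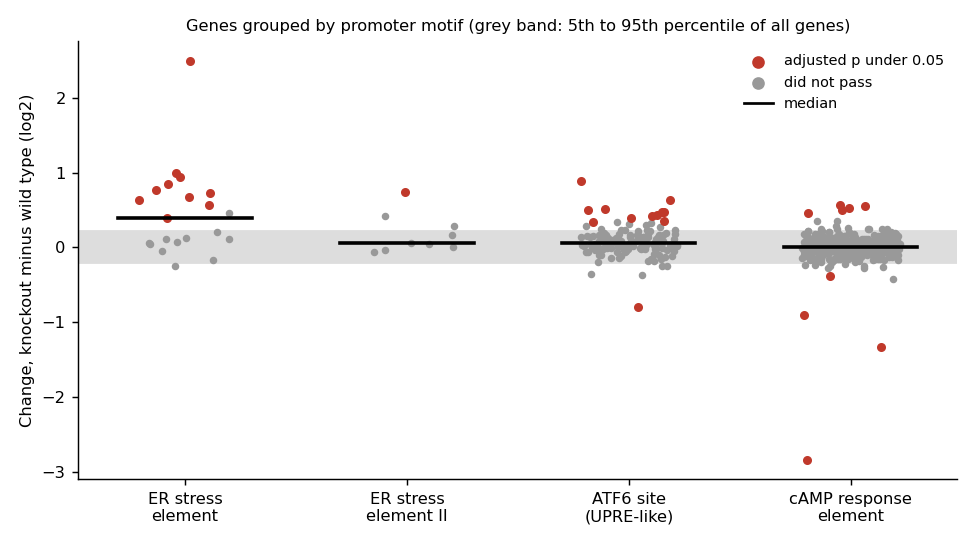
Log2 change (knockout minus wild type) of measured genes whose promoter holds each motif (points, spread sideways at random), with the median as a bar and the 5th to 95th percentile of all genes as a grey band. The median of the ER stress element group is 0.39, above the band, and the medians of the other 3 groups lie between 0.0075 and 0.063, within it.

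The promoters of Creb3 and Creb3l2 are shown because these 2 called genes have an entry in the promoter table. Of the 8 genes, 6 had an entry, all except Atf6 and Creb3l1, and none of the 6 held a complete match to any of the 4 motifs. The 250 bases before the start are printed 5′ to 3′ on the gene's strand (build GRCm38.p6), with each CCAAT or CCACG, or its reverse complement, in capitals.
Creb3 (chr4:43562408-43562657, plus strand): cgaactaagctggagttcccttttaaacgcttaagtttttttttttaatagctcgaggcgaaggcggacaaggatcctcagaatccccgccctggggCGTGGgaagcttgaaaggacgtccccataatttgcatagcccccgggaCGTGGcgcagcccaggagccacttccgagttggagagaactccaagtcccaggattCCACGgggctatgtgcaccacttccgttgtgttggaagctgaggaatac
Creb3l2 (chr6:37442149-37442398, minus strand): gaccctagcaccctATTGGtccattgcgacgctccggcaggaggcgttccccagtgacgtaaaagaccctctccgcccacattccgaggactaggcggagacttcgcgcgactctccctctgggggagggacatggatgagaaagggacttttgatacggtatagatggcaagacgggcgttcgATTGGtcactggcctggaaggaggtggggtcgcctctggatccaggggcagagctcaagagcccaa
Creb3 had 3 CCACG letters and no CCAAT, and Creb3l2 had 2 CCAAT boxes and no CCACG. Single copies of these letters are common, with CCAAT in 33.8% and CCACG in 28.3% of all promoters on either strand, and both in 9.26%. The 4 other genes with an entry, whose transcripts did not pass the test, also held such letters. Atf6b had 1 CCAAT and Mbtps1 had 1 CCACG. Creb3l3 had 1 of each in 1 of its 2 promoter entries and neither in the other, and Creb3l4 had 2 CCAAT in 1 of its 3 entries and 1 CCACG in each of the others.

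The other stress sensors were read on the same arrays. Atf4 of the PERK branch rose by 0.54 ± 0.066 (SE, adjusted p = 0.0099), while Eif2ak3, Ern1 and Ern2 were not called, with changes of 0.33, -0.015 and -0.044. For Atf4 and Eif2ak3 the knockout arrays all lay above the wild type arrays, as for 11.4% of all genes. Of the 4 genes, 2 had an unadjusted p under 0.05 by limma. The call of Atf4 ended without knockout array 1 (adjusted p = 0.052).

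Markers of other cells were set beside these changes, since in tissue RNA fewer cells of a type and less RNA per cell cannot be told apart. The mean level of the 12 epithelial markers lay between 11.81 and 11.89 in the knockout arrays and between 11.82 and 11.95 in the wild type arrays, with 0 called by limma and an unadjusted p under 0.05 for 4. For the 8 measured goblet cell markers, which bear on Creb3l1, the mean lay between 11.99 and 12.07 in the knockout arrays and between 11.96 and 12.01 in the wild type arrays, with 0 called and 1 at an unadjusted p under 0.05. For the 6 enteroendocrine markers the mean lay between 7.69 and 8.06 in the knockout arrays and between 8.07 and 8.47 in the wild type arrays, so the ranges of the means did not overlap. Of the 6, 5 did not pass the test, with changes of -0.60 for Insl5 to -0.071 for Neurod1. All 6 changes were negative, and 3 of the 6 genes had an unadjusted p under 0.05 by limma. The hormone gene Pyy fell by 0.49 ± 0.072 on the log2 scale (limma, adjusted p = 0.017). The call of Pyy held in 1 of the 6 fits that leave out an array, the one without wild type array 3. The part of enteroendocrine cells in the changes of Creb3l2, Creb3 and Atf6 was not tested. For the 7 fibroblast markers the mean lay between 5.90 and 6.00 in the knockout arrays and between 5.89 and 6.13 in the wild type arrays, and limma called 0, with 1 of unadjusted p under 0.05. In the lists of smooth muscle, B and plasma cells, macrophages and dendritic cells, T cells, neutrophils, endothelium and glia, 0 genes passed limma's test and none reached an unadjusted p under 0.05. Among the small intestine markers only Rbp2 was called (-0.33 ± 0.055, adjusted p = 0.027), and the call was lost with each array left out.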

How the data were processed

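Per the submitters' processing notes, the authors used RMA, a method that subtracts background, equalises the arrays and combines the probes of each probe set. The deposited values were taken as log2 because of their range, and they were used as they stand, with array medians of 6.32 to 6.36. For that step, version, probe set definition and build were not given in the sources used here. Precision is limited by the number of arrays.

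The platform annotation gave a single gene for 21789 of 35556 probe sets, and only these were used. It gave several genes for 1621 and listed none for 12146. Current symbols came from RefSeq (GRCm38.p6). Where a gene had several probe sets, the one brightest on average over the 6 arrays stood for it, leaving 19936 genes.

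Genotypes were compared by limma 3.58.1 (R 4.3.3) with lmFit, eBayes and no other term, two-sided, with p-values adjusted by Benjamini-Hochberg over all genes and calls made at an adjusted p under 0.05. Changes and adjusted p-values of single genes come from that fit, with moderated SE and n = 3 arrays a genotype. Where an array is left out or another setting is named, the fit was repeated that way. The procedure was tested on simulated data. Paralog differences were tested by exact permutation (SciPy 1.17.1). Their SE was not moderated and came from the spread between arrays within each genotype, and their p-values were adjusted over the 3 pairs. Promoters (RefSeq, 250 bases before to 50 after the start) were searched for exact letters.

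The rule for named genes takes the 8 genes, Sel1l, a fixed set of ATF6 regulators and targets, up to 4 called genes of smallest p per list, and the 3 genes most like each called member. Members, lists and motifs were chosen with earlier results of these data known, and counts by motif were added after the data had been seen. Protein sequences were not used here, so a planned comparison of protein regions was not made. Alternatives comprised quantile normalization, median centring, array weights, an intensity trend, a robust prior, removal of the dimmest 25% or 50% of genes, probe set means, the replicate number as a block, and omission of each array. No batch was tested, because litter, hybridisation and scan dates were not used here.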

Additional observations from a re-analysis of the deposited data

How the results depend on the processing

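The calls of Creb3l2, Creb3 and Atf6 held under all 9 alternatives that keep the 6 arrays, with changes of 0.72 to 0.76, 0.44 to 0.48 and 0.44 to 0.47. With an array left out, the changes ran from 0.67 to 0.82 for Creb3l2, 0.42 to 0.50 for Creb3, 0.43 to 0.50 for Atf6 and -0.87 to -0.67 for Sel1l, and the number of called members from 0 (without knockout array 1) to 3. The near-zero changes of 3 uncalled members turned sign. Creb3l1 was -0.011 with median centring and spanned -0.040 to 0.055 over the fits that omit an array, Creb3l3 was 0.018 with array weights and ran from -0.096 to 0.11, and Mbtps1 was 0.0035 with quantile normalization and ran from -0.053 to 0.019. The count of ATF6 targets lay between 13 and 18 over these 9 alternatives and between 12 and 14 when an array was omitted. The count of COPII and export genes was 3 with the replicate number block, 11 without the dimmest 50% of genes, where fewer genes were tested, 11 with an intensity trend, and 1 to 3 when an array was omitted. The cause of the change with the trend or the block was not tested. Counts of genes with TGACGTGG lay between 9 and 18 over the 9 alternatives that keep the 6 arrays, and between 4 and 10 when an array was omitted. Leaving out 1 array also leaves fewer samples, and the count over all genes then ran from 69 to 303, against 325 with all 6 arrays, 614 with an intensity trend, 217 with the replicate block and 598 without the dimmest 50% of genes. Whether the replicate numbers pair the arrays cannot be told from these values. Deviations of same-numbered arrays from their group means correlated at -0.10, 0.15 and 0.15. Those of arrays with different numbers correlated at -0.26 to 0.12. The replicate block changed no member's call. The differences Atf6 minus Atf6b and Creb3l2 minus Creb3l1 stayed between 0.35 and 0.44 and between 0.64 and 0.80 over the fits that omit an array, while Creb3l4 minus Creb3l3 spanned -0.054 to 0.25.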

Other observations

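Creb3l3 had nearly the same level in arrays of the same number, with knockout minus wild type differences of 0.033, -0.026 and -0.0098 for numbers 1, 2 and 3, although levels within a genotype spanned 0.38 in the knockout and 0.40 in the wild type. Creb3l2 showed the same regularity around its rise, with differences of 0.75, 0.74 and 0.73. The differences of every other member were more spread. Among those others, Atf6 had the narrowest spread (0.52, 0.48 and 0.38) and Creb3l4 the widest (0.27, 0.20 and -0.19). The labels do not say that the numbers pair the arrays, and over all genes same-numbered arrays did not deviate together in every pair. The pattern was noticed after the values were seen.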
